A study of Mus musculus with 4 samples.

Results

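Sptssb encodes a small subunit of serine palmitoyltransferase, the enzyme that starts the synthesis of ceramides and all other sphingolipids, and it was described here together with 9 other genes of the same route in newborn mouse ureter. The 10 genes were chosen by name (Sptssa, Sptssb, Sptlc1, Sptlc2, Sptlc3, Cers2, Cers4, Cers5, Cers6 and Degs2), with the high value of Sptssb in these ureter arrays already known, so that their ureter-against-reference values are a description and carry no test. All probe sets that the platform annotation assigns to exactly 1 of these symbols were taken, 20 of the 45101 on the array. A probe set is a group of short probes read together as 1 intensity.

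The 3 ureter samples were whole ureters freed from kidney and bladder of FVB/N males at postnatal day 1 (Theiler stage 27), each carrying an SMGA/EGFP transgene, a green fluorescent reporter whose name refers to Actg2, the gamma-actin of smooth muscle; none was a pool. The reference was 1 pooled sample of whole FVB/N mice of both sexes at that age, without the transgene. RNA of every sample went through amplification in 2 rounds before labelling. Tissue, transgene, sex and pooling change together between the groups and cannot be told apart, and nothing says that the ureters came from separate animals, so that their spread may be technical. In whole ureter, fewer cells of a type and less RNA per cell also cannot be told apart.

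Serine palmitoyltransferase joins serine to a fatty acyl-CoA. Its catalytic core pairs Sptlc1 with either Sptlc2 or Sptlc3, and a small subunit, Sptssa or Sptssb, raises its activity and shifts which acyl-CoA it takes; Sptssb is known to favour longer ones and Sptlc3 to widen the range of chain lengths. Ceramide synthases (the Cers genes) then attach a second fatty acid, each with its own preferred length, and a desaturase or hydroxylase (Degs1, Degs2) finishes the ceramide. Sphingolipids are plentiful in the apical membrane of the urothelium, the lining epithelium of the ureter.

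The tissue labels were read against marker genes first. Of 13 urothelium markers 8 were higher in ureter than in the reference at an adjusted p under 0.05 (limma, adjusted over the 27022 probe sets tested), and of 8 smooth muscle markers 6 were. Krt5 of the first list and Des of the second went the other way. Each had every ureter below the reference (log2 difference, ureter minus reference, -1.74 and -1.35). The other markers of these lists that did not pass had every ureter above it. Summed normalized intensity of the urothelium markers was 140904 to 249300 in the ureters and 34059 in the reference. Markers of liver (5 of 5) and epidermis (6 of 7) were lower. The epidermis marker that did not pass, Ivl, had every ureter above the reference (0.75). Of 6 mesenchyme and fibroblast markers 3 were higher, and of 4 myelin and neuron markers tested 1 was lower. The others of these lists did not pass. Of 8 nephron markers measured 0 passed in either direction by limma, and 0 had an unadjusted p under 0.05, but their sum ranged from 1745 in ureter replicate 1 to 21876 in replicate 2, with 8032 in the reference. Over the whole array 1667 probe sets passed, 725 higher and 942 lower, against 444 higher and 882 lower with the scaling as deposited and 317 in all without ureter replicate 3.

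The start-site sequences of the small subunit genes and of Sptlc3 are shown because these 3 genes hold the contrast described below: Sptssb and Sptlc3 with the largest differences, and Sptssa, the alternative small subunit, with a small one. They are the 250 bases upstream of the start in RefSeq, build GRCm38.p6, written 5′ to 3′ on the gene's strand, with every CpG dinucleotide in capitals. Sptssb lies at chr3:69859895-69860144 (minus strand), Sptssa at chr12:54656573-54656822 (minus strand) and Sptlc3 at chr2:139493663-139493912 (plus strand).
Sptssb: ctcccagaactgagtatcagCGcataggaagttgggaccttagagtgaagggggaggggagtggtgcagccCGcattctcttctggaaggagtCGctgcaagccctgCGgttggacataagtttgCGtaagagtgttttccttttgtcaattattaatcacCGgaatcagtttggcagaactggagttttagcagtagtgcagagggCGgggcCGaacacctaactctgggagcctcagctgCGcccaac
Sptssa: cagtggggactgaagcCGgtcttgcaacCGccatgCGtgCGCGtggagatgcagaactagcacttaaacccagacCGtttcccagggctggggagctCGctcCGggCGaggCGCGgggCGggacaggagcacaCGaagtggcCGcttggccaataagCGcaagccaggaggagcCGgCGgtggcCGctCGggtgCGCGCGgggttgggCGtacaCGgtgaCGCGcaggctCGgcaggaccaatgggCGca
Sptlc3: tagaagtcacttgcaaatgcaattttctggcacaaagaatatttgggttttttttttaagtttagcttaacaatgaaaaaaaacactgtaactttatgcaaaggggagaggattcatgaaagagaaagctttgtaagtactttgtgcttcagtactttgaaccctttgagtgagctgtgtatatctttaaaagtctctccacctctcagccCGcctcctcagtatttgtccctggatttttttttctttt

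Sptssa had 28 CpGs in this window, Sptssb 9 and Sptlc3 1. Among all 32851 RefSeq start windows of the same length, 92.4% had fewer than Sptssa, 59.7% fewer than Sptssb and 7.87% fewer than Sptlc3. All 10 genes matched, with 11 windows, since Cers2 has 2; CpG counts of the other 7 genes ranged from 11 to 24, apart from the downstream window of Cers2 with 5. The GC box GGGCGG, read on both strands, was present in the windows of Sptssb and Sptssa and not in that of Sptlc3, and in 32.7% of all windows. The CCAAT box (CCAAT, both strands) was found in Sptssa and in neither Sptssb nor Sptlc3, against 33.8% of all windows, and the TATA box TATAAA in none of the 11 windows, against 12.4%. GGGCGG contains a CpG, so the counts overlap.

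Sptssb was the member with the largest difference by far. At its brighter probe set, 1417802_at, normalized intensity was 38965, 19397 and 21786 in ureter replicates 1 to 3, against 336.4 for the reference. Every ureter lay far above the reference. The mean was 26716 ± 10675 (SD, n = 3), and the log2 difference, ureter minus reference, was 6.19 ± 0.43 (SE of the limma fit), or 73.0-fold. As deposited, before normalization between arrays, the intensities were 34957, 19804, 21757 and 460.5, which gave a log2 difference of 5.71. The deposited reference value of 460.5 was above 187.7. That is the highest of 27 probe sets for bacterial transcripts on the reference array, called the bacterial level from here on. Of all probe sets other than controls, 61.2% were above that level on the reference array. How much of the 460.5 is background is therefore not known, and the fold may be understated.

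The second Sptssb probe set, 1417803_at, gave nearly the same picture. Its normalized intensities were 26245, 13554, 21472 and 280.5, a log2 difference of 6.07 ± 0.42 (67.3-fold). Among 27022 tested probe sets the Sptssb pair ranked 4 and 6 by log2 difference, which is a description only.

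Sptssa, the other small subunit, was nearly level. Its only probe set, 1448388_a_at, read 26830, 20579 and 25967 in the ureters and 21116 in the reference array. Replicate 2 lay below the reference and the others above it, so that the groups overlapped. The log2 difference was 0.20 ± 0.22 (1.15-fold), beside a median of 0.11 over all probe sets tested.

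**Figure D1:**
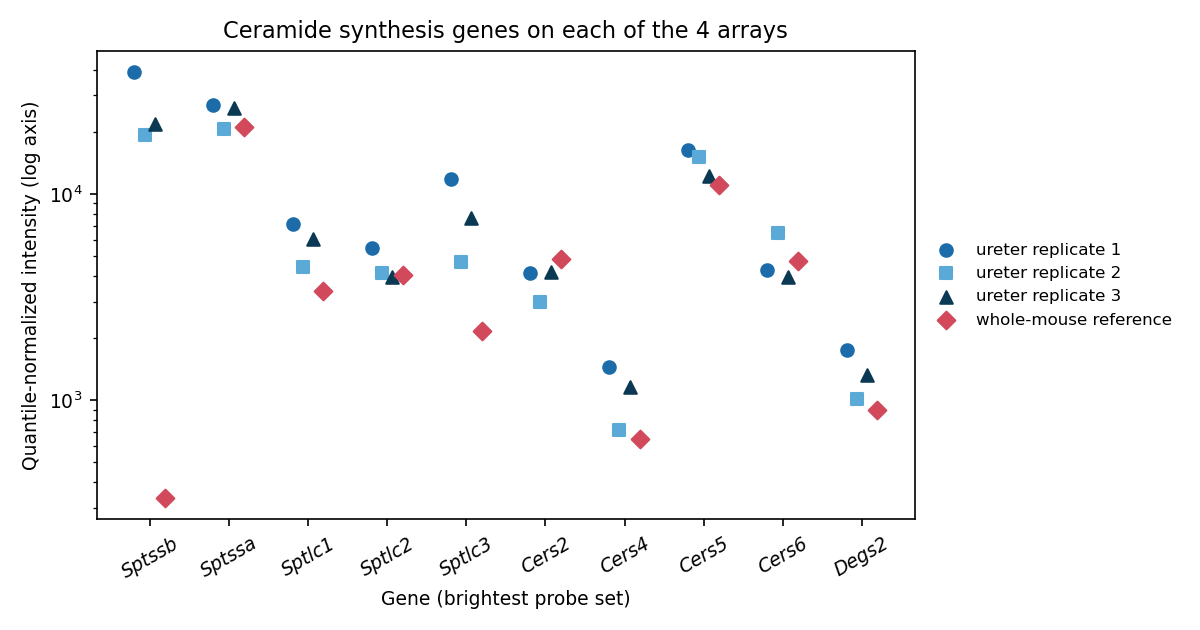
Quantile-normalized intensity (log axis) of the brightest probe set of each gene on the 3 ureter arrays and the whole-mouse reference array. Sptssb reads 19397 to 38965 in the ureters against 336.4 in the reference, Sptlc3 is above the reference in all 3 ureters, and Sptssa, Sptlc2 and Cers6 overlap with it; levels of different genes are not comparable.

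Among the catalytic subunits, Sptlc3 stood highest against the reference. Probe set 1439492_at had normalized intensities of 11879, 4667 and 7689 in ureter replicates 1 to 3 and 2158 in the reference. Even the lowest ureter was above the reference, although the ureters themselves spread 2.55-fold. The log2 difference was 1.80 ± 0.52 (3.47-fold). The other Sptlc3 probe set, 1446310_at, was too dim for the filter on low values and below the bacterial level in the reference and in ureter replicate 2, so no difference is given.

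Sptlc1, the subunit that every form of the enzyme contains, was moderately higher at each tested probe set. At the brightest, 1422690_at, normalized intensity was 7159, 4442 and 6042 in the ureters and 3397 in the reference, a log2 difference of 0.76 ± 0.37 (1.70-fold). The probe set 1436726_s_at read 3491, 3426 and 3598 against 1670, with hardly any spread between ureters, and differed by 1.06 ± 0.33, and 1436727_x_at differed by 1.06 ± 0.45. By their suffixes the last pair can also bind related transcripts. The remaining Sptlc1 probe set, 1422691_at, was above the bacterial level on 1 of 4 arrays and did not pass the filter.

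The probe sets of Sptlc2, the usual partner of Sptlc1, disagreed. The brightest, 1460243_at, read 5490, 4134 and 3948 in the ureters and 4032 in the reference, a log2 difference of 0.15 ± 0.34 with overlapping groups. In contrast 1435937_at read 3398, 1372 and 1959 against 875.0, with all 3 ureters above the reference and a log2 difference of 1.25 ± 0.56. The level of Sptlc2 relative to the whole body thus depends on which probe set is read; 1454257_at, at 9.26 to 15.2 on every array, was at background throughout.

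Of the 4 ceramide synthase members, each at its brightest probe set, Cers4 and Cers5 had every ureter above the reference. Cers2 had every ureter below it, and Cers6 overlapped with it. Cers2, which makes ceramides with very long acyl chains and is active in most tissues, read 4139, 2985 and 4198 in the ureters and 4853 in the reference, the only member with every ureter below it (-0.38 ± 0.35). That direction turned with median-centred arrays (0.45). Cers6, which prefers shorter chains, read 4282, 6461 and 3977 against 4714, with replicate 2 above the reference and the others below it, and differed by 0.02 ± 0.38 (-0.19 without ureter replicate 2).

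Cers5, another synthase of shorter-chain ceramides, read 16377, 15120 and 12237 in the ureters and 11107 in the reference at 1451209_at. All ureters were above the reference, by a mean log2 difference of 0.38 ± 0.26. A dim Cers5 probe set under the filter, 1447308_at, was below the bacterial level in the reference and in ureter replicate 2, so no difference is given. Cers4 had 3 tested probe sets with no common direction: 0.70 ± 0.51 at the brightest, 1417780_at (1454, 717.8 and 1160 against 649.9), 0.44 ± 0.49 at 1417782_at and -0.11 ± 0.46 at 1417781_at.

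Degs2, which both desaturates and hydroxylates the sphingoid base and so makes phytoceramides in epithelia, read 1760, 1020 and 1326 in the ureters and 902.8 in the reference. Each ureter was above the reference, replicate 2 only slightly, and the log2 difference was 0.56 ± 0.45 (1.47-fold).

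**Figure D2:**
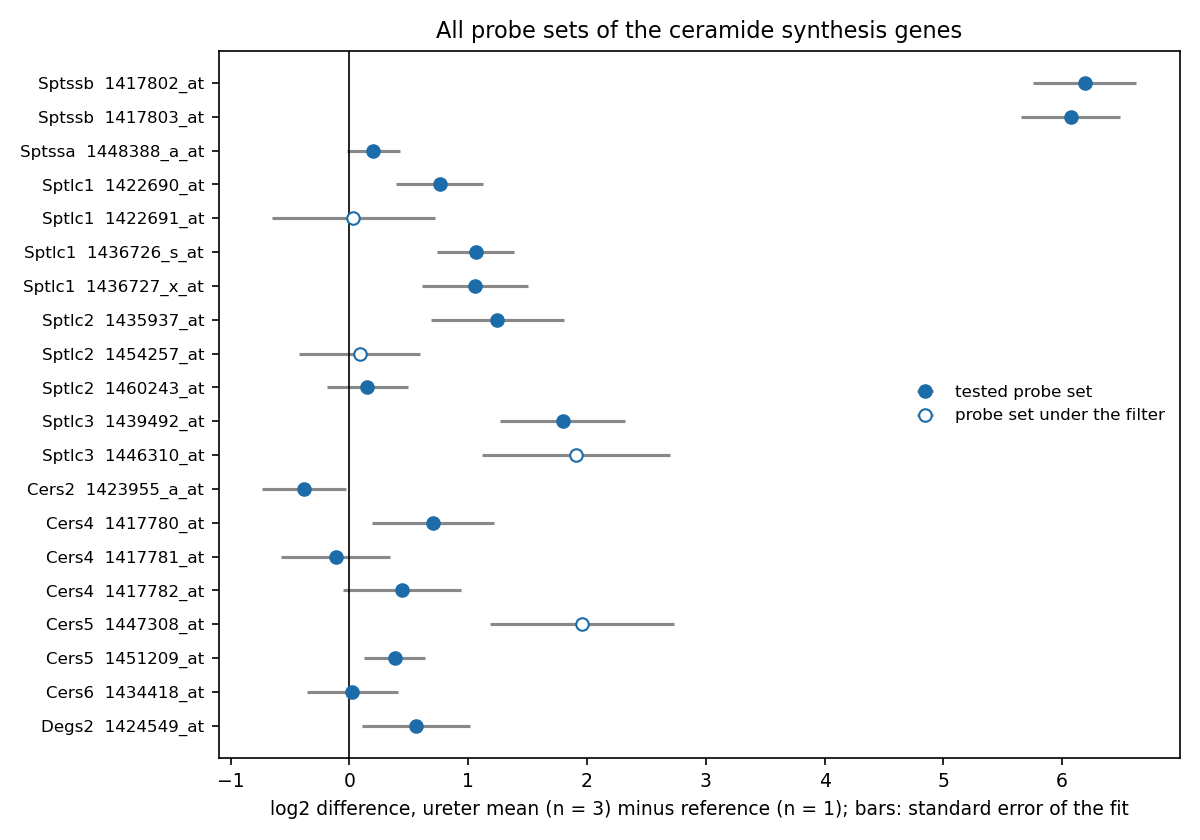
Log2 difference, ureter mean (n = 3) minus reference (n = 1), of all 20 probe sets of the 10 genes; bars are the standard error of the limma fit and open circles mark the 4 probe sets under the filter on low values. Both Sptssb probe sets lie above 6 and every other probe set lies below 2.

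Over the 10 genes, each taken at its brightest probe set and all passing the filter, 6 had all 3 ureters above the reference and 1 had all below. By gene that was Sptssb, Sptlc1, Sptlc3, Cers4, Cers5 and Degs2 above, Cers2 below, and Sptssa, Sptlc2 and Cers6 overlapping. Over the 13721 genes tested, 39.9% had all ureters above and 30.7% all below. By the threshold 1 member, Sptssb, was higher and the other 9 did not pass (Sptlc3 did without ureter replicate 2), where 2.94% of all genes were higher and 4.77% lower. The median log2 difference of the 10 genes was 0.47 and that of all tested genes 0.10. Since the members were chosen with this contrast in view, nothing is read from these counts. They depend on the scaling: with median-centred arrays 9 members had all ureters above, as did 58.0% of all genes, and the median over all genes was 0.68.

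The rest of sphingolipid metabolism was counted from lists written by role, 81 genes of which 70 were tested, 5 fell under the filter and 6 were not analysed here. Of the 70, 2 were higher and 3 lower by limma's adjusted p, 2.86% and 4.29%, where 2.94% and 4.77% of all genes were. Median log2 difference was -0.28, and 36 of the 70 (51.4%) had all ureters below the reference, against 30.7% of all genes. This split too depends on scaling, with 15 below (21.4%, against 16.7% of all genes) with median-centred arrays, where the pathway median was 0.35 against 0.68 for all genes.

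Cers3, a ceramide synthase of the skin barrier that uses ultra-long acyl chains, was 1 of the pathway genes that were higher. Its normalized intensity was 12954, 12329 and 12002 in the ureters and 3712 in the reference. The ureters lay close together and far above the reference, with a log2 difference of 1.74 ± 0.25 (3.34-fold, limma adjusted p = 0.0186). The call ended without ureter replicate 3 (adjusted p = 0.101) and without the intensity trend (0.0731), within a range of 0.00988 to 0.101 over 11 alternatives. In the same list of 5 tested genes, 4 did not pass, among them Degs1, the main ceramide desaturase (0.01 ± 0.23). The other tested Degs1 probe set, 1423345_at, had every ureter below the reference and did not pass either (-0.55 ± 0.31, limma adjusted p = 0.341).

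Acer2, a ceramidase of the Golgi apparatus that releases sphingosine from ceramide, was the other gene that rose. It read 38939, 20487 and 27949 in the ureters and 1415 in the reference. All ureters were well above the reference and replicate 1 was the highest, as for Sptssb. The log2 difference was 4.30 ± 0.37 (19.7-fold, limma adjusted p = 0.00634), and the call held in 11 of 11 alternatives. The other 16 tested genes of sphingolipid breakdown did not pass by limma, though 6 of the 17 had an unadjusted p under 0.05. Here and below, the share of all genes at that unadjusted threshold was not counted, so nothing is read from these counts. Gm2a, an activator of ganglioside breakdown, differed by 0.10 ± 0.34 at its brightest probe set, and by 0.70 and 1.39 at its other tested ones.

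The 3 genes that were lower act in acyl-CoA supply and in ganglioside synthesis. Acsl5, a fatty acyl-CoA synthetase of intestine and liver, fell by 1.53 ± 0.26 on the log2 scale (limma adjusted p = 0.0287; 0.115 without ureter replicate 3, range 0.0124 to 0.303). Elovl7, a fatty acid elongase, read 764.8, 996.9 and 743.6 in the ureters and 3318 in the reference at its brightest probe set, -1.99 ± 0.40 (adjusted p = 0.0448); the call held in 4 of 11 alternatives, with adjusted p = 0.0672 without ureter replicate 1 and 0.183 without replicate 3, range 0.0298 to 0.228. The other tested Elovl7 probe sets did not pass (-1.52 to -0.34, adjusted p from 0.109 to 0.787). St3gal5, which makes the ganglioside GM3, read 1505, 1875 and 1550 against 6706, -2.03 ± 0.36 (adjusted p = 0.0310; 0.141 without ureter replicate 3, range 0.0202 to 0.271), while its other tested probe set did not pass (-1.31, adjusted p = 0.499). All 3 also lost their calls with median-centred arrays.

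Of 14 tested genes of acyl-CoA supply and elongation, 2 were lower and 12 did not pass, 7 of the 14 having an unadjusted p under 0.05, with Tecr at -0.04 ± 0.43. Elovl6, an elongase counted by its brightest probe set (0.98 ± 0.24, limma adjusted p = 0.0698), passed at a dimmer one, 1417403_at (2.67 ± 0.40, adjusted p = 0.0213). Its remaining tested probe set, 1442656_at, went the other way (-2.93 ± 1.13, limma adjusted p = 0.186). There every ureter was below both the reference and the bacterial level, so the Elovl6 probe sets have no common direction. Among 16 genes that turn ceramide into complex sphingolipids 15 did not pass, Cerk, the ceramide kinase, at -0.12 ± 0.40, and 3 had an unadjusted p under 0.05. Cert1, which carries ceramide to the Golgi apparatus, differed by 0.84 ± 0.30 at its brightest probe set (limma adjusted p = 0.156) and passed at a dimmer one, 1420384_at (2.68 ± 0.50, adjusted p = 0.0346). Of 12 genes of sphingosine 1-phosphate synthesis, breakdown and reception 0 passed by limma, 1 having an unadjusted p under 0.05 (median -0.51), the receptor gene S1pr3 lying at -0.09 ± 0.31. Of 6 tested skin barrier ceramide genes 0 passed by limma, again 1 having an unadjusted p under 0.05 (median -0.68), with Aloxe3 at -0.40 ± 0.55. A further 3 listed there, Abca12, Alox12b and Sdr9c7, fell under the filter and were not tested. The filter takes the mean of both groups, so it can drop a gene that is low in ureter.

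**Figure D3:**
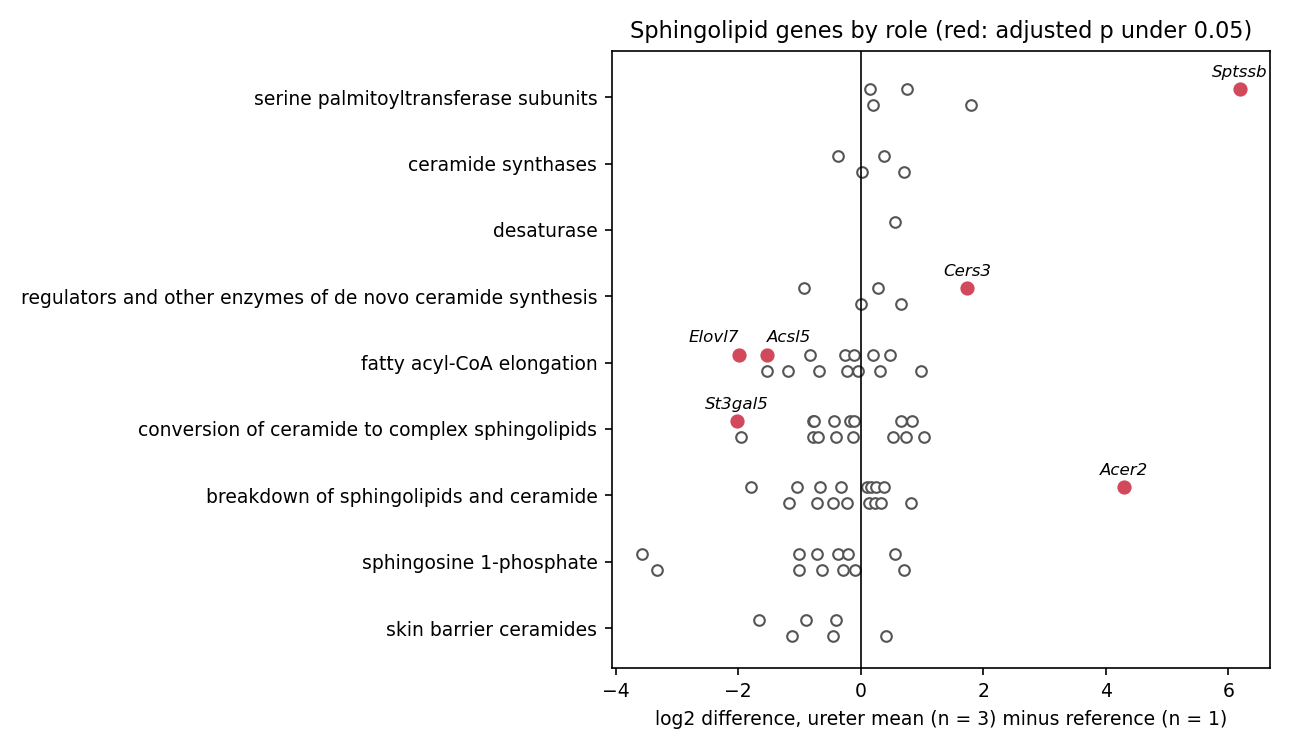
Log2 difference, ureter mean (n = 3) minus reference (n = 1), of the brightest probe set of each tested gene, by role in sphingolipid metabolism; the top 3 rows are the 10 members. Red points passed an adjusted p of 0.05 (for Sptssb a description, since it was chosen on this contrast): Sptssb, Acer2 and Cers3 are higher, Elovl7, Acsl5 and St3gal5 lower.

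The ureters also differed among themselves. This comparison sets no ureter against the reference, although the reference entered the normalization and the choice of tested and brightest probe sets. At 8 of the 10 members replicate 1 was the highest ureter and at 7 replicate 2 was the lowest, where 5489 of the 13721 tested genes were highest in replicate 1 and 45.2% lowest in replicate 2. As deposited the counts were 7 and 8, against 33.7% and 36.7% of all genes. The median deviation of the members from their ureter mean was 0.30 in replicate 1, -0.35 in replicate 2 and 0.01 in replicate 3 on the log2 scale.

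Urothelium markers were ordered in the same way. All 13 were highest in replicate 1 and 10 were lowest in replicate 2, with median deviations of 0.45, -0.32 and -0.14; as deposited the counts were 12 and 9. Spread between ureters ran from 1.07-fold to 2.70-fold over the 13 markers, with Upk3a, a uroplakin of the urothelial surface, at 1.95-fold. Sptssb spread 2.01-fold. Of the 8 nephron markers 7 were lowest in replicate 1, the exception being Kap, and the median deviations were -2.15, 1.18 and 0.43; in replicate 1, 5 of 8 were above the bacterial level and in the others all 8. Smooth muscle markers had median deviations of -0.13, 0.06 and 0.08, although Myocd, a coactivator of smooth muscle genes, spread 5.04-fold (2604, 13114 and 5477). The part of these shifts in the members' values was not tested.

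**Figure D4:**
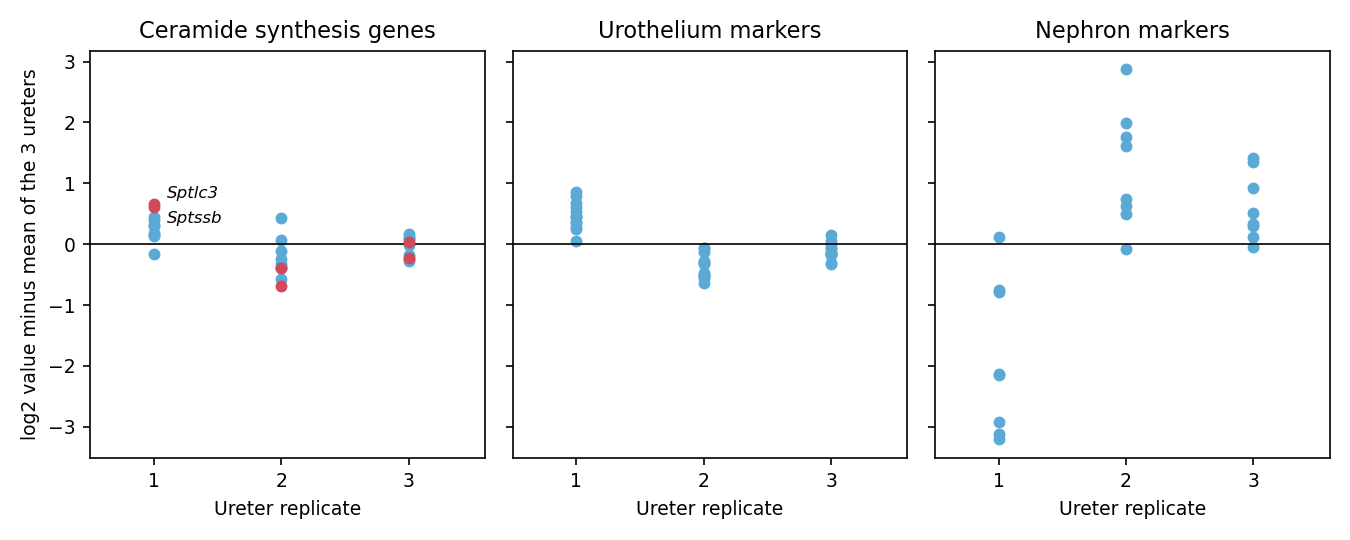
Log2 value of each gene in each ureter replicate minus its mean over the 3 ureters, for the 10 ceramide synthesis genes (Sptssb and Sptlc3 in red), 13 urothelium markers and 8 nephron markers. Most members and all 13 urothelium markers are highest in replicate 1, whereas 7 of the 8 nephron markers are lowest there.

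The genes with the profile most like that of Sptssb were sought over the 4 arrays, by the Euclidean distance between log2 values centred on each probe set's mean, among 13216 named genes. In order of distance they were Upk3a (0.51), Upk1b (0.57), Atp10b (0.61), Cldn8 (0.71), Lca5l (0.96), Tbx18 (0.98), Pkhd1 (1.10) and Snx31 (1.27). Upk3a and Upk1b encode uroplakins, Cldn8 a tight junction claudin and Tbx18 a T-box regulator known from the mesenchyme around the ureter rather than from its epithelium. Upk3a read 27530, 14149 and 20798 in the ureters and 360.3 in the reference, and Cldn8 16292, 6411 and 11136 against 213.4. Both had replicate 1 highest and replicate 2 lowest, as in Sptssb, and so had Upk1b, Atp10b and Tbx18. Lca5l, Pkhd1 and Snx31 were lowest in replicate 3. Because the genes were picked for likeness over these same arrays, a shared order is partly built in. Atp10b, Lca5l, Pkhd1 and Snx31 were at or below the bacterial level in the reference, so their distances are not exact. With 3 ureters and 1 reference, this likeness mostly restates the size of the difference. Of the other members Sptlc3 was nearest to Sptssb, at rank 432 (distance 3.83), followed by Sptlc1 at rank 2411, and Cers2 was farthest at rank 9204.

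**Figure D5:**
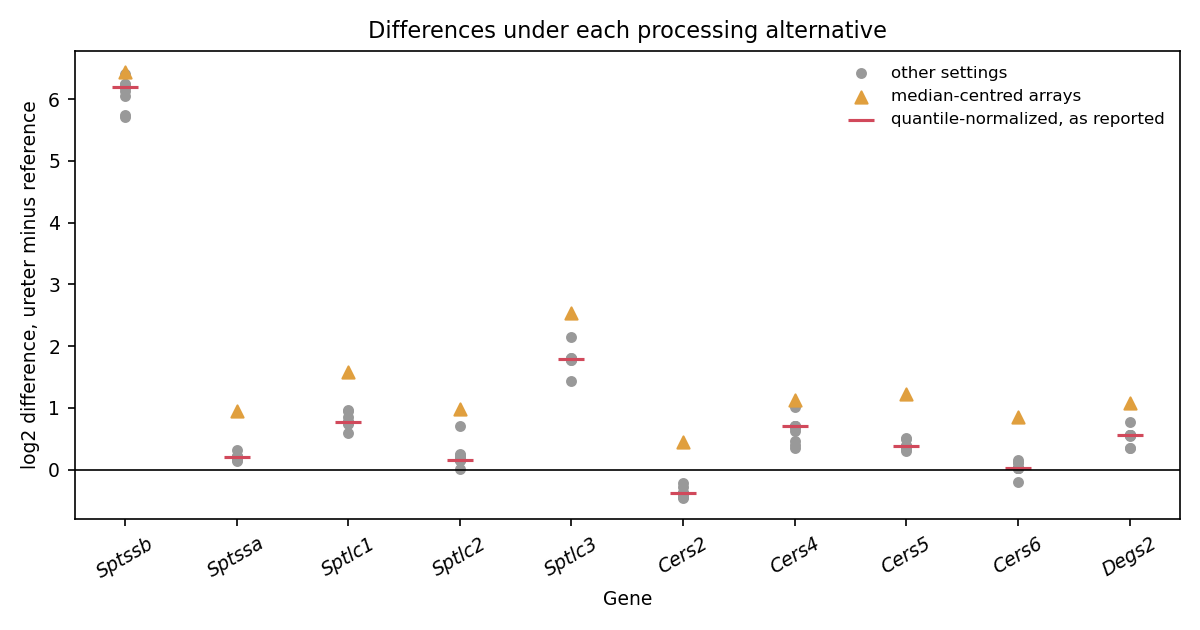
Log2 difference, ureter minus reference, of each member under the reported processing (red bar), median-centred arrays (orange triangle) and the other alternatives (grey). Sptssb stays between 5.71 and 6.44 and Sptlc3 between 1.44 and 2.53, while Cers2 and Cers6 change sign between settings.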

How the data were processed

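Intensities of 4 arrays (3 ureter, 1 reference) were analysed. The authors deposited linear-scale intensities, already scaled to a common mean (1500 after trimming 2% at each end); the submitters' processing notes name GCOS. No source used here gives the background handling. Median log2 values of the arrays spanned 1.05, and the arrays were quantile normalized (limma 3.58.1, R 4.3.3) and taken as log2(intensity + 12.23), the 10th percentile of all values, which understates differences of dim probe sets. After 64 controls, the dimmest 40% were left out, leaving 27022. Ureter was compared with reference by limma's moderated test (lmFit, then eBayes with trend), two-sided; p-values were adjusted over these by Benjamini and Hochberg's method and called under 0.05. Only the ureters give residual degrees of freedom (2), and the test assumes that the reference varies alike. A run on simulated data gave all 4 arrays the same spread, so it could not check that assumption.

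A gene was represented by its brightest tested probe set. Named pathway genes were those past the threshold and, per list, the 1 with the smallest difference. Elovl6, Cert1, Kap, Myocd, Krt5, Des and Ivl were named after their values were seen. Members and lists were chosen with earlier results of these data known. The files give no detection calls or array dates; the number of arrays limits precision. Alternatives were scaling, offset, filter, trend, probe-set averaging and leaving out each ureter.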

Additional observations from a re-analysis of the deposited data

How the results depend on the processing

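Sptssb kept its direction in 11 of 11 alternatives (5.71 to 6.44), as did Sptlc3, Sptlc1, Cers5 and Degs2. Cers4 did so too, although its probe set 1417781_at alone lay at -0.11. Sptlc2 and Sptssa also stayed positive but came down to 0.0027 and 0.14 without ureter replicate 1. As reported, both overlapped with the reference, so theirs is not a stable direction. With median-centred arrays the members' median was 1.10 and 2 pathway genes passed, and the median over all probe sets was 0.60 (-0.13 as deposited). Without the filter 1075 probe sets and 3 pathway genes passed, and without the intensity trend 904 and 1. Leaving out 1 ureter at a time gave 317 to 2135 probe sets and 1 to 7 pathway genes, the lowest counts without replicate 3, when Acer2 alone passed. The members' median then lay between 0.32 and 0.55 and Sptssb between 5.75 and 6.40.

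Pathway genes near 0 changed sign: with median-centred arrays Cerk (0.40), S1pr3 (0.76) and Tecr (0.61); as deposited S1pr3 (0.031); and with probe sets averaged Degs1 (-0.27), S1pr3 (0.23) and Tecr (0.041). Leaving out 1 ureter at a time moved Degs1 between -0.060 and 0.13, Gm2a between -0.11 and 0.28, S1pr3 between -0.23 and 0.043, and Tecr between -0.21 and 0.14. The averaged values are means over each gene's tested probe sets. Those lay at 0.01 and -0.55 for Degs1 and at -0.04 and 0.12 for Tecr. The cause of the sign changes under the other settings was not tested. Probe sets near the bacterial level, 4 of the members' 20, were limited by signal. No paired analysis was possible because the reference has 1 sample.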
